A study of Mus musculus with 2 samples.

Results

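The genes described here are 10 transcription factors of amacrine and horizontal cells of the retina: Tfap2a, Tfap2b, Tfap2c, Onecut1, Onecut2, Prox1, Lhx1, Ptf1a, Barhl2 and Prdm13. They were taken by name from the GRCm38 gene table, which holds 21887 protein-coding genes, and all 10 were found. Open chromatin was mapped by ATAC-seq, a method that uses the Tn5 transposase to cut and tag accessible DNA. The tissue was flash-frozen neural retina of adult C57BL/6 littermate mice, either wild type or knocked out for Gabra3, which encodes a GABA-A receptor subunit. There was 1 library of 20000 nuclei per genotype, and the labels do not say whether it came from 1 animal. How the Gabra3 allele was made is not given in the sources used here. Insertions are 5-prime ends of reads with a mapping quality of at least 10, each position and strand counted once. There were 7635799 in the wild-type and 7646373 in the knockout library. With 1 library per genotype there was no replicate check and no test. Intervals are exact 95% intervals (Clopper-Pearson) of the split of a summed count, and cover counting error only.

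Amacrine and horizontal cells are the inhibitory interneurons of the retina. Horizontal cells act on photoreceptor terminals in the outer plexiform layer, and amacrine cells act on bipolar and ganglion cells in the inner plexiform layer. Both arise from progenitors through Ptf1a, a bHLH factor, and are a small minority of retinal cells, most of which are rods in the mouse. In bulk retina an element open in few cells and an element weakly open in many cells give the same count and cannot be told apart.

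Some marker loci of every retinal cell class given here held open regions, as did some of other tissues. Of all protein-coding gene loci 31.3% held none, so an open region at a locus is common. All 4 cone marker loci and all 4 Muller glia marker loci held them, at 7.91 to 15.7 and 5.34 to 23.7 insertions per kb with both libraries summed. The genome mean was 5.74 per kb. Open regions stood at 3 of 4 bipolar and 2 of 4 ganglion cell marker loci. Of the 5 amacrine markers 4 held an open region, and of the 4 horizontal markers 3 did, at 6.16 to 38.8 and 3.58 to 21.5 per kb over all markers. The horizontal marker Lhx1 is counted through a region that covers an end of the neighbouring gene Aatf. The 21.5 per kb is its value too, and was 9.46 without that region. These marker lists hold Tfap2a and Tfap2b, and Onecut1, Onecut2 and Lhx1, so they are no separate check of those genes. For markers of other tissues and cells, open regions stood at 2 of 4 retinal pigment epithelium loci (Mitf and Pmel, not Rpe65 or Tyr). They stood at 2 of 3 lens loci, 3 of 4 microglia loci and 1 of 4 vascular loci. Whether those cells were present was not tested. At marker starts the wild-type and knockout libraries held 72 and 63 insertions for amacrine cells, 53 and 36 for horizontal cells, 227 and 215 for pigment epithelium, and 35 and 29 for microglia. They held 47 and 55 for cones, 133 and 150 for bipolar cells, 30 and 50 for ganglion cells, and 166 and 148 for Muller glia, so the direction differed between classes. What part cell composition had in the ratios below was not tested.

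Most of the 10 genes start in DNA rich in C and G, and their reference sequences are shown because this base composition usually goes with an open start in these libraries. RefSeq start positions were matched for 8 genes by gene ID, with 10 starts in all, and Tfap2c and Onecut2 had no entry. The 250 bases before a start are printed 5′ to 3′ from RefSeq, build GRCm38.p6, with each CpG in capitals. Onecut1 (chr9:74861671-74861920, plus strand) and Barhl2 (chr5:106458167-106458416, minus strand) carry 31 and 36 CpG, Lhx1 (chr11:84525535-84525784, minus strand) carries 26, and Ptf1a (chr2:19445413-19445662, plus strand) carries 19. Prdm13 (chr4:21685964-21686213, minus strand) carries 7 and is shown for contrast.
Onecut1: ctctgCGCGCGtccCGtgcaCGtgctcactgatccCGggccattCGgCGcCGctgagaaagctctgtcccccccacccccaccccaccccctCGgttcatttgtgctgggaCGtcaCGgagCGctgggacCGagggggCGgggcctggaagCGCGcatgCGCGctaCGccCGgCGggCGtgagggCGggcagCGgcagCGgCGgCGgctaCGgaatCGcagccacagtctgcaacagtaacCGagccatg
Barhl2: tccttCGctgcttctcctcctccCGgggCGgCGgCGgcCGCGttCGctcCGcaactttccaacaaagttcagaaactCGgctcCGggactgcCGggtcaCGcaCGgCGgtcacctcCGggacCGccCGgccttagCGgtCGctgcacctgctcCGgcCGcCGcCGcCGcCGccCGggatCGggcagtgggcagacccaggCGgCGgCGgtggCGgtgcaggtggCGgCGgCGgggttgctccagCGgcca
Lhx1: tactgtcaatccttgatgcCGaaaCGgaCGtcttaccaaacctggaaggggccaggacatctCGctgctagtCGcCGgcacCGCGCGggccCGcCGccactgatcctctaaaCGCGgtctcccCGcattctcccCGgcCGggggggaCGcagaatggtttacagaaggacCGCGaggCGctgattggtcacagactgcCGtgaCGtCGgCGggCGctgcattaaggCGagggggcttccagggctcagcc
Ptf1a: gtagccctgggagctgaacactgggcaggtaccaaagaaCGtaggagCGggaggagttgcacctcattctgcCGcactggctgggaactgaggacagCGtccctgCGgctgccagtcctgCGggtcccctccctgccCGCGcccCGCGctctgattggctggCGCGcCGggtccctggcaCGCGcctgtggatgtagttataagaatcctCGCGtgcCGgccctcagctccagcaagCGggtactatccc
Prdm13: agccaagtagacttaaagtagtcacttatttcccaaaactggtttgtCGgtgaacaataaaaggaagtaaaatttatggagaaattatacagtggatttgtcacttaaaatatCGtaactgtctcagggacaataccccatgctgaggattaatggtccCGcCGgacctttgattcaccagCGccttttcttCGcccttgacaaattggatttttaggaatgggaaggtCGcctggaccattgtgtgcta

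Starts of the listed genes held few insertions for DNA of this kind. Windows of 250 bases before to 50 after a RefSeq start were called CpG-rich at a GC content of at least 55% and a CpG observed over expected ratio of at least 0.6. Of 32851 such windows 9950 were CpG-rich, and 8667 of those (87.1%) had an open region within 500 bp of the start. They held a median of 170 insertions within 500 bp, with quartiles of 70 and 263, both libraries summed. Among the listed genes 6 windows were CpG-rich: those of Onecut1, Barhl2, Lhx1 and Ptf1a, the outermost start of Prox1 and the inner start of Tfap2a. They held 29, 15, 12, 10, 18 and 18 insertions, all below the lower quartile. Open regions stood at 2 of the 6, Onecut1 and Barhl2. The other 4 windows (Prdm13, Tfap2b, the outer start of Tfap2a and the inner start of Prox1) held 11, 18, 4 and 22 insertions. The median of their class was 7.0 with quartiles of 3.0 and 17.0, so Tfap2b and the inner start of Prox1 were above the upper quartile. An open region stood at 1 of the 4, the inner start of Prox1, and at 18.7% of the class. So the listed genes were low among CpG-rich starts and at or above the median in 3 of 4 among the rest. The windows of both classes come from 27025 genes, of which 17492 are in the protein-coding table. Starts of other genes are therefore part of each class, and medians over coding genes alone were not computed for these classes. These are counts of genes chosen by name, described without a test.

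**Figure D1:**
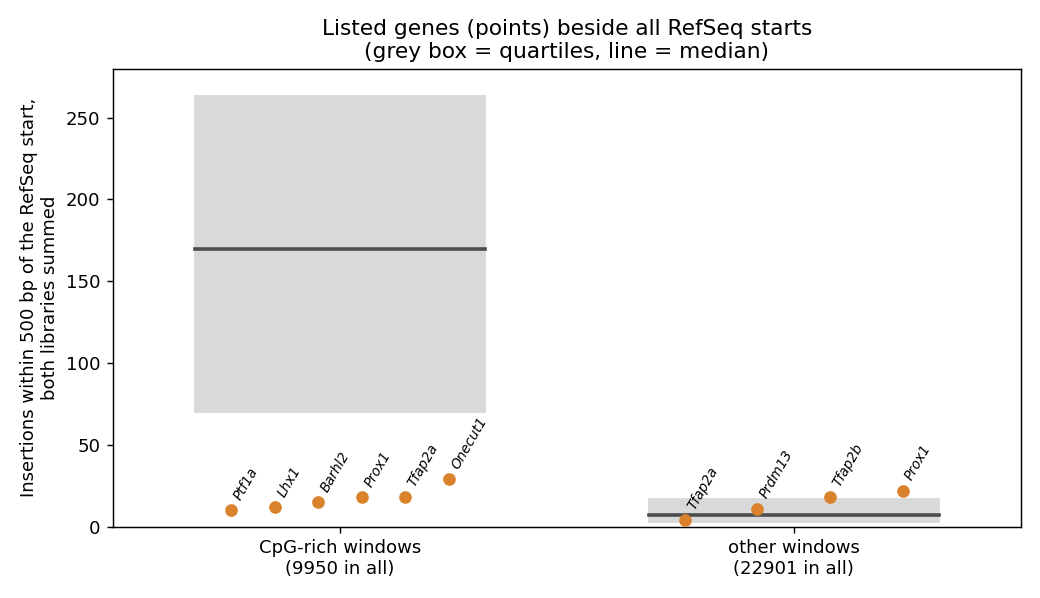
Insertions within 500 bp of each RefSeq start (vertical axis, both libraries summed) for the 10 starts of 8 listed genes (points), beside all CpG-rich starts (left; grey box from 70 to 263, line at the median of 170) and all other starts (right). The 6 CpG-rich starts of listed genes lie between 10 and 29, below the grey box.

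Binding motifs were searched in the 300-base windows on both strands. The AP-2 motif GCCNNNGGC, which the Tfap2 proteins bind, stood in 1 of 10 windows, that of Ptf1a, and in 16.6% of all windows. The ONECUT core ATCAAT stood in the window of Tfap2b alone (7.54% of all windows), and the variant ATCGAT in none of the 10 (0.925%). Of 2 E-boxes, the sites of bHLH factors such as Ptf1a, CATCTG stood in 1 window (Prox1; 17.2% of all) and CAGCTG in none (16.3%). The OTX core TAATCC stood in the window of Prdm13 (7.06% of all) and the homeodomain core TAATTA in the outer window of Tfap2a (5.29% of all). TATAAA stood in the outermost window of Prox1 (13.6% of all). The SP motif CCGCCC stood in 6 of 10 windows, of Barhl2, Onecut1, Prox1 and Tfap2a, and in 35.7% of all. Each is a match of letters in these windows and no more, and overlaps between motifs were not removed.

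The AP-2 genes Tfap2a, Tfap2b and Tfap2c encode related factors of postmitotic amacrine cells; Tfap2a and Tfap2b are also made in horizontal cells. Tfap2a (chromosome 13, 40713802 to 40738238) held 251 wild-type and 212 knockout insertions over the gene and 5 kb either side. That was a level of 0.955 and 0.805 insertions per kb of window and 1000000 insertions of the library. Log2 ratios, here always the knockout divided by the wild type, are scaled to all autosomal insertions for such whole windows, and for Tfap2a the value was -0.25 (-0.52 to 0.02). By strand of the read, the log2 ratio was -0.53 from 136 and 94 plus-strand insertions, and 0.03 from 115 and 118 minus-strand insertions. No interval was computed by strand, so whether the strands differ beyond counting error is not stated.

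A single region held 125 of the 251 wild-type and 106 of the 212 knockout insertions at Tfap2a. It spanned 1000 bp (chromosome 13, 40722551 to 40723550), inside the gene and 10.7 kb from the nearer RefSeq start. It ranked 3545 of 36840 open regions by summed insertions and was called in each library on its own. Its log2 ratio, scaled like that of every region and start window to autosomal insertions in open regions, was -0.18 (-0.57 to 0.21). Exons were not used here, so whether it lies in an intron is not stated. Outside it the Tfap2a window held 126 and 106 insertions, 6.94 per kb summed. The starts were low: 3 and 1 insertions at the outer RefSeq start and 11 and 7 at the inner. The outermost end of the gene model held 2 and 4. Tfap2a thus had its most accessible element within the gene and none called at a start.

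Tfap2b and Tfap2c had no open region within the gene or 5 kb of it. Tfap2b (chromosome 1, 19208908 to 19238845) held 131 and 115 insertions (level 0.430 and 0.377; log2 ratio -0.19, -0.56 to 0.18). Its RefSeq start held 9 and 9 insertions, and its far end held 0 and 2, where a count of 0 allows up to 3. The sole open region within 100 kb lay 29.7 kb before its start, toward the paralog Tfap2d, with 12 and 3 insertions. That sum of 15 is under the minimum of 20 used for ratios of regions, and its ratio was -1.78 (-4.41 to -0.05). Tfap2c (chromosome 2, 172545678 to 172558622) held 69 and 82 insertions (0.394 and 0.467; 0.24, -0.23 to 0.73). By strand it held 42 and 34 plus-strand and 27 and 48 minus-strand insertions, again without an interval. Its ends held 4 and 5, and 2 and 1. Its 4 open regions within 100 kb held 29 and 26 insertions in sum.

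**Figure D2:**
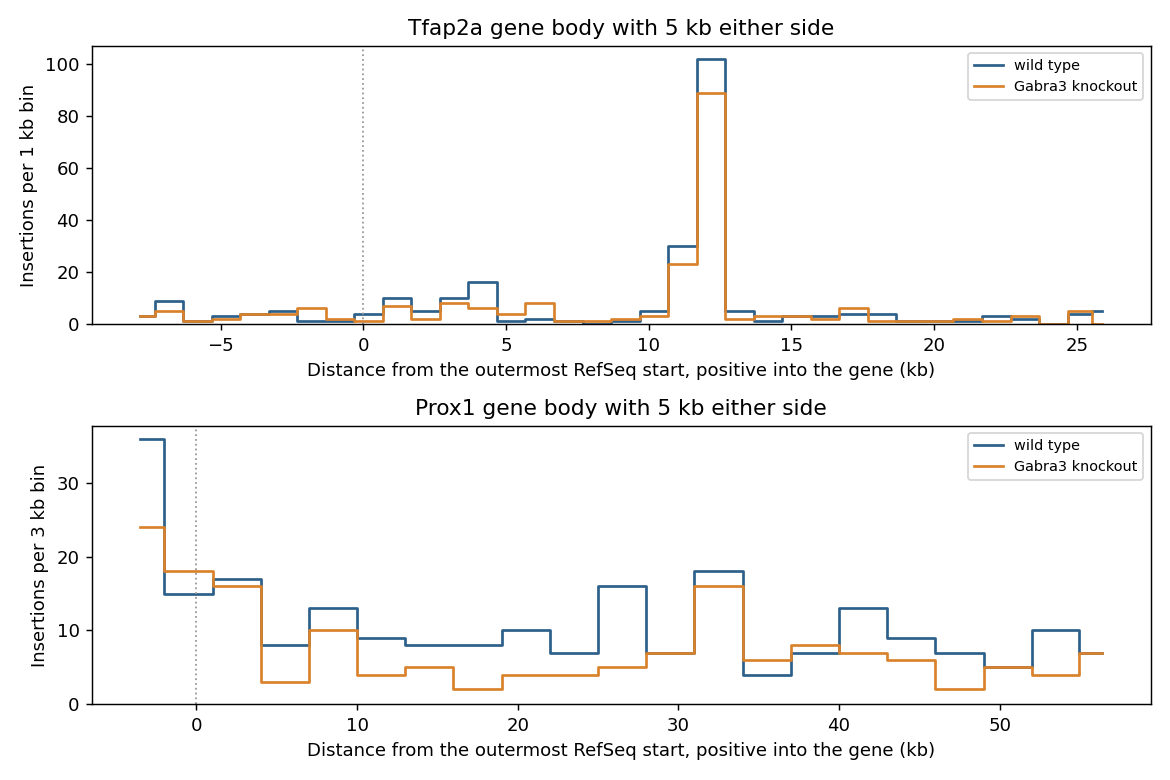
Insertions in each library along Tfap2a (upper panel, 1 kb bins) and Prox1 (lower panel, 3 kb bins) against the distance from the outermost RefSeq start, positive into the gene, with 5 kb beyond each gene end. The Tfap2a profile has 1 peak, of 102 wild-type and 89 knockout insertions in its highest bin. The highest Prox1 bin, beyond the start, holds 36 and 24 against medians of 9 and 6.

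Onecut1 and Onecut2, cut-homeodomain factors that are needed for horizontal cells, were the listed genes with most insertions at the start. Onecut1 (chromosome 9, 74861921 to 74889648) held 17 and 12 within 500 bp of its start (log2 ratio -0.43, -1.64 to 0.71). The region there was 300 bp wide, covered the sequence printed above, and held 12 and 6 insertions. Onecut2 (chromosome 18, 64340032 to 64398488) held 19 and 12 at its end of lower coordinate (-0.58, -1.78 to 0.51) and 1 and 2 at the other. A region of 350 bp covered that end, with 14 and 9 insertions, and a weaker one 2.77 kb inside the gene held 4 and 8. The regions at the 2 ends were each called in the wild-type library and not in the knockout library, at an equal number of insertions. Both ratios are below 0, and both intervals reach from below to above 0. Over the whole windows Onecut1 held 101 and 104 insertions (level 0.351 and 0.361; 0.04, -0.37 to 0.45) and Onecut2 held 144 and 167 (0.275 and 0.319; 0.21, -0.12 to 0.54), so their start and whole-window ratios differ in sign.

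Prox1, a homeodomain factor of horizontal cells, AII amacrine cells and some bipolar cells, was the listed gene with the lowest ratio. Over its window (gene at chromosome 1, 190118035 to 190170827) it held 234 wild-type and 163 knockout insertions, a level of 0.488 and 0.339. The log2 ratio was -0.52 (-0.82 to -0.23). Both strands gave it, at -0.53 from 117 and 81 insertions and -0.51 from 117 and 82. The lower count was spread along the gene: of 21 bins of 3 kb the wild-type count was higher in 15, the knockout count in 3, and 3 were equal. Bins held 4 to 36 wild-type insertions (median 9) and 2 to 24 knockout insertions (median 6). The gene body alone had 175 and 120 (-0.54, -0.89 to -0.20). The 100 kb on each side of the window had 493 and 452 (-0.13, -0.32 to 0.06).

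The starts of Prox1 held too few insertions to tell whether they shared this difference. The outermost start held 8 and 10 insertions (0.36, -1.11 to 1.92), and the inner start held 11 and 11 (0.06, -1.29 to 1.41). In a window of 1000 bp either side the ratio of the outermost start was -0.17 (-1.48 to 1.09). Each of these intervals includes 0 and also the whole-window value of -0.52. The 2 open regions of Prox1 were 200 bp each and weak, with 6 and 5 insertions 31.4 kb into the gene, and 3 and 8 insertions 0.365 kb from the inner start. The bin with most insertions lay beyond the start, in the antisense lncRNA gene Prox1os, with 36 and 24. Counting does not use strand of transcription, so insertions of overlapping genes cannot be told apart.

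Lhx1, a LIM-homeodomain factor of horizontal cells, had most of its window's insertions at a neighbouring gene. Its window (gene at chromosome 11, 84517975 to 84525534) held 194 and 184 insertions, a level of 1.45 and 1.37, the highest of the 10 (log2 ratio -0.08, -0.38 to 0.22). Of these, 115 and 105 fell in a region of 850 bp (84513151 to 84514000) that covers an end of Aatf, an apoptosis-antagonizing factor gene. Without that region Lhx1 held 79 and 79 insertions, 9.46 per kb summed in place of 21.5 (0.00, -0.47 to 0.47). Its own start held 7 and 5 and had no open region, and no other open region lay within 100 kb.

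Ptf1a, Barhl2 and Prdm13 act in amacrine fate and subtype choice. Ptf1a (chromosome 2, 19445663 to 19447501) held 39 and 36 insertions (level 0.431 and 0.398; -0.12, -0.81 to 0.57), the fewest of the 10 and the only sum under 100. Its start held 2 and 8 insertions, its other end 1 and 3, and its body 5 and 14. A region of 300 bp with 9 and 5 insertions lay 2.59 kb from the start, across an end of the lncRNA gene 1810010K12Rik. Barhl2 (chromosome 5, 106452523 to 106458166), a BarH-like homeodomain factor, held 58 and 53 (0.486 and 0.443; -0.13, -0.70 to 0.43). Its start held 10 and 5 (-0.87, -2.84 to 0.74). A region of 300 bp with 7 and 6 lay 335 bp before the start, across an end of the gene Gm33151. It was called in neither library alone. Prdm13 (chromosome 4, 21675865 to 21685963), a zinc finger protein of the PR domain family, held 74 and 73 (0.482 and 0.475; -0.02, -0.51 to 0.46). Its start held 8 and 3 (-1.22, -3.91 to 0.70), its other end 3 and 0, and it had no open region. At these starts the direction differed between genes, upward for Ptf1a and downward for Barhl2 and Prdm13, with every interval including 0. In a window of 1000 bp either side the Ptf1a ratio was 1.64 (0.06 to 3.83).

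**Figure D3:**
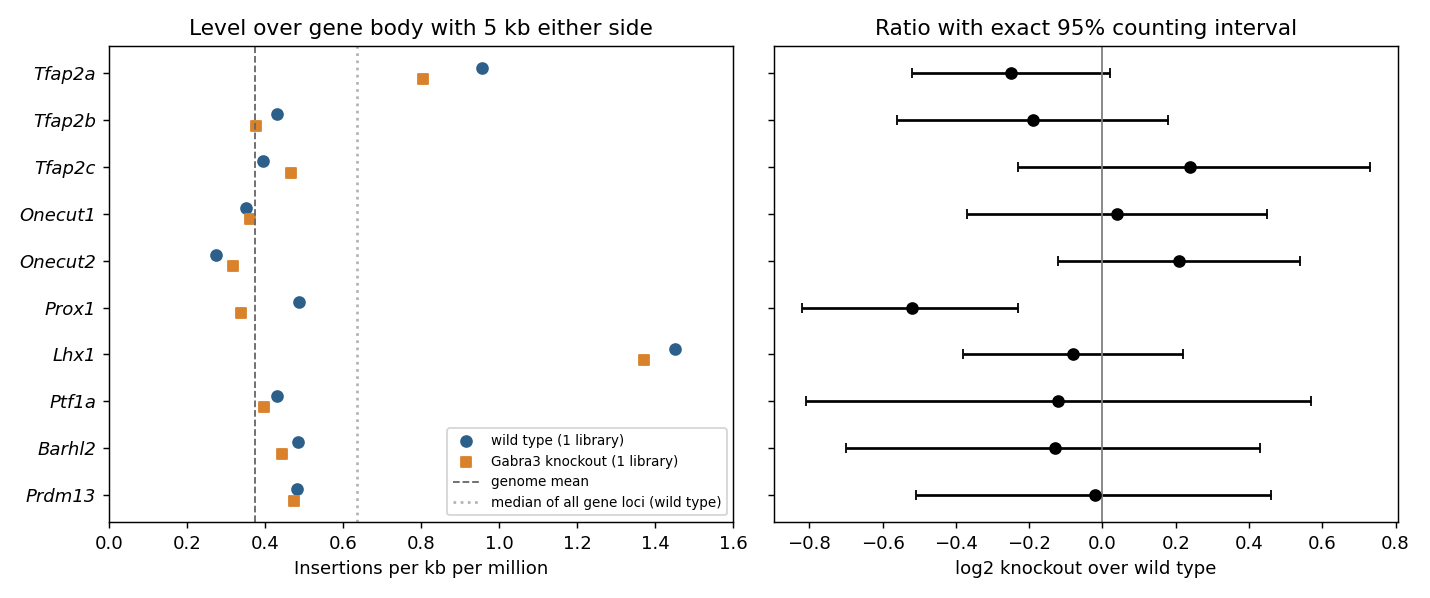
Left, insertions per kb and 1000000 library insertions over each gene body with 5 kb either side, 1 point per library, with the genome mean (dashed) and the median of all gene loci (dotted); right, log2 ratio (knockout over wild type) with its exact 95% counting interval. Lhx1, with the region at Aatf included, and Tfap2a lie above the dotted line and the other 8 below it. The interval of Prox1 is the one that leaves out 0.

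Set beside all genes, these loci were sparse. The summed count per kb of the 10 windows had a median of 6.46, against 9.79 over all 21887 genes. For 8 of the 10 between 29.1% (Onecut2) and 40.2% (Prdm13) of genes were at or below them, and for Tfap2a and Lhx1 64.6% and 84.4%. The Lhx1 rank includes the region at Aatf, without which Lhx1 held 9.46 per kb, below the median of 9.79. Outside called regions the windows held 4.06 to 9.46 insertions per kb. Their 9 open regions were called on both libraries together. With the libraries thinned to an equal number of insertions, 5 of the 9 were called in the wild-type library, 3 in the knockout library and 3 in neither. Of autosomal insertions 19.6% and 18.8% lay in open regions, and what part this had in the calls was not tested. Of all 26591 and 23824 regions called per library, the wild-type library also had more. Tfap2b, Tfap2c and Prdm13 had no open region, as did 31.3% of all genes.

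Among the listed genes 1 window was set apart from equal by its counting interval. Of the 9 windows with at least 100 insertions 1, that of Prox1, had an interval below 0, as did 3.89% of 16724 gene windows. With 50 kb either side in place of 5, Tfap2b had one as well (-0.32, -0.59 to -0.06). At 50 kb 968 of all gene windows had one, against 650 at 5 kb. The number of windows tested at 50 kb is not given here, so no share is stated. With 5 kb, none of the 9 had one above 0, as 3.11% of all did. Scaled to insertions in open regions instead, that split over all genes turned from 650 below and 520 above 0 to 220 below and 1404 above, because the scalings differ by 0.06 on the log2 scale. The Prox1 value was then -0.46 (-0.76 to -0.17). None of the 9 reached 1.5-fold in either direction (0.293% of all windows) or 2-fold (0.0%). At starts with at least 20 insertions, Onecut1 and Onecut2, neither was past 2-fold, as 1.45% of starts were. Ratios were below 0 for 7 windows and above 0 for 3, with a median of -0.10, against 11453 below and 10434 above and a median of 0.00 for all genes. Over gene bodies with no flank 4 were below 0 and 6 above, and the median was 0.14, so the direction of this median depends on the window. Summed, with each insertion once, the 10 windows held 1295 and 1189 insertions (-0.13, -0.24 to -0.01). Without Prox1 the sum gave -0.05 (-0.18 to 0.07). Scaled to open regions, the sum of all 10 windows, Prox1 among them, gave -0.06 (-0.18 to 0.05). The 10 starts, at gene ends and, for Tfap2c and Onecut2, at the end with more insertions, held 81 and 68 (-0.19, -0.68 to 0.29).

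The wider surroundings of these genes held 32 open regions within 100 kb, most of them weak. Of these, 22 lay over 1000 bp from the ends of every coding gene, and they held 376 and 346 insertions in sum (-0.06, -0.28 to 0.15). Of the 13 regions with at least 20 insertions, 0 were past 2-fold, as 2.81% of such regions in the genome were, and all 13 intervals included 0. Apart from the region inside Tfap2a, the strong ones lay at neighbours: Aatf beside Lhx1, Fech near Onecut2 (144 and 116), Fam214a near Onecut1 (93 and 86) and Ccnc near Prdm13 (64 and 52) each had a region across a gene end. Away from coding gene ends, the strongest region near Prdm13 lay inside Usp45, 90.3 kb out, with 61 and 63. Near Onecut1 it lay inside Fam214a, 114 kb from the start, with 42 and 33 (-0.28, -0.99 to 0.40). Near Onecut2 it lay inside St8sia3, with 15 and 14. The second region of Tfap2a lay 82.5 kb from its start beyond the far end of the gene, with 12 and 18 (0.62, -0.49 to 1.83). For Prox1 it lay 99.8 kb before the start (10 and 9), for Ptf1a 30.4 kb before it (7 and 9), and for Tfap2c 77.1 kb below its end of lower coordinate, inside Rtf2 (11 and 7). The neighbours are landmarks, and no link from a region to a gene was measured.

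The starts of other transcription factors of amacrine and horizontal cells are given for comparison, without a test. A list of 26 holds genes such as Pax6, Meis2, Isl1 and Satb1. Its median was 24 summed insertions at the start, against 11.5 for the 10 and 24 for all protein-coding genes. Open regions stood at 12 of 26 starts, against 3 of 10 and 49.6% of all genes. At the RefSeq start with most insertions the shares were 9 of 20 and 3 of 8, against 54.4% of all genes. The medians there were 30 and 16.5, against 39 for all genes. Rorb, a nuclear receptor shared with photoreceptors, held most (103 and 80), and Zfhx3, a large zinc finger gene, held 0 and 0 at the outermost end of its model. Over whole windows 2 of 24 with at least 100 insertions had an interval below 0, Meis1 (987 and 901; -0.13, with an upper bound just under 0) and Tcf4 (1664 and 1522; -0.13, -0.23 to -0.03), and 0 had one above 0. Neurod4, a bHLH factor, had the ratio farthest from 0 (55 and 39; -0.49, -1.13 to 0.12), with its window under that minimum of 100. Pax6, a paired-box factor of amacrine cells named here after its values were seen, held 13 and 12 insertions at its start and 3 open regions in its window.

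The 7 paralogs of the listed genes had a window median of 0.20, with 6 above 0. Tfap2d, beside Tfap2b, had an interval just below 0 (106 and 78; -0.44, -0.89 to -0.01), and Lhx5 had the largest ratio (0.45, -0.12 to 1.03). The Tfap2b window with 50 kb either side reaches into Tfap2d, so its value shares insertions with that of Tfap2d. Prox2 held most insertions at the end of its gene model taken as the start (98 and 106), though its RefSeq start with most held 15 in sum, and Tfap2d held fewest (2 and 2). A list of 25 holds genes that amacrine and horizontal cells use to signal, such as Gad1, Slc32a1, Chat and Th. It also holds other genes made in them, such as Calb1, Pvalb and Elavl3. Of these 25 starts 7 held an open region, against 49.6% of all genes. Their median was 13 insertions, against 24 for all genes. Snap25, the synaptic SNARE gene that all retinal neurons use, held 80 and 83, and Sst, the somatostatin gene, 0 and 0. Over windows Sst held 16 and 6 (-1.35, -3.06 to 0.01), under the minimum of 100. Of 19 windows with at least 100 insertions, 1 had an interval below 0: Penk, the proenkephalin gene (68 and 39; -0.80, -1.41 to -0.22).

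Among transcription factor lists the 10 genes lay between those of ganglion cells and those of tissues outside the retina. The summed count at the start had a median of 75 for 15 photoreceptor factors, 34 for 13 Muller glia factors, 29 for 12 bipolar factors, 18 for 12 ganglion cell factors and 6.5 for 24 factors of other tissues. Open regions stood at 10 of 15, 8 of 13, 7 of 12, 5 of 12 and 1 of 24 of these starts. The photoreceptor gene Mef2d held 152 and 124, the Muller glia gene Rax 82 and 93, the bipolar gene Prdm8 70 and 65 and the ganglion cell gene Klf7 98 and 98. Among factors of other tissues Tbx4, a limb factor, held most (11 and 18). The fewest stood at the outermost model ends of Mef2c (0 and 2), Lhx4 (7 and 5), Eomes (1 and 5), Irx2 (3 and 3), Nfia (6 and 2) and Gata1 (1 and 0). The highest of the 10 listed genes, Onecut2 with 31 in sum, was above the highest of that list, 29. Of starts given by gene ends some miss a start inside the gene model. At the RefSeq start with most insertions the medians were 16.5 for 8 listed genes, 177 for photoreceptor factors and 7.0 for factors of other tissues. Over all protein-coding genes with such a start the median was 39. Over whole windows the ratio farthest from 0 in each list was that of Nr2e3 for photoreceptors (874 and 732; -0.26, -0.40 to -0.11), Irx5 for bipolar cells (147 and 100; -0.56, -0.94 to -0.18), Pou4f2 and Pou4f3 for ganglion cells (40 and 50, 0.32, -0.31 to 0.96; 45 and 36, -0.32, -1.0 to 0.34), Sox2 for Muller glia (57 and 42; -0.44, -1.05 to 0.16) and Foxa2 for other tissues (44 and 29; -0.60, -1.33 to 0.10). The windows of Pou4f2, Pou4f3, Sox2 and Foxa2 are under the minimum of 100 insertions, so their ratios rest on few counts. Intervals left out 0 for Nr2e3, Mef2c, Irx5 and, upward, Tbx4 (212 and 288; 0.44, 0.18 to 0.70). Several genes stand in more than 1 list, and the order of the lists is a description without a test.

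**Figure D4:**
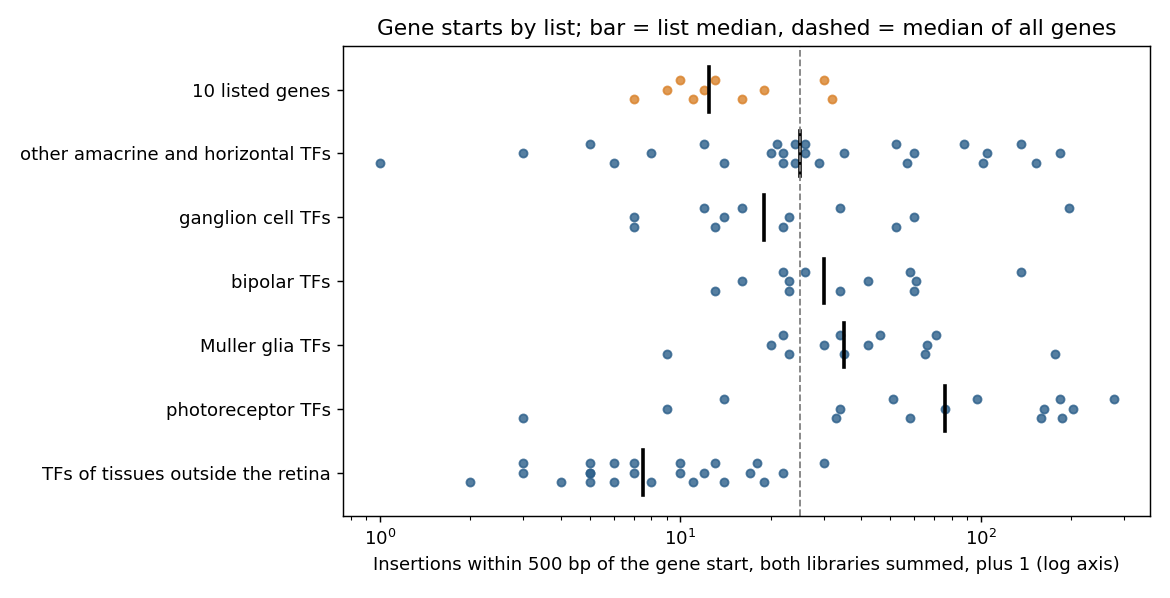
Insertions within 500 bp of the gene start, both libraries summed plus 1, on a log axis, 1 point per gene and a bar at the list median, with the median of all genes dashed. The 10 listed genes run from 6 to 31 with a median of 11.5, between the factors of other tissues (6.5) and the ganglion cell factors (18).

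Around RefSeq starts the listed genes showed a low rise in both libraries. Taking for each gene the start with most insertions, the 8 listed genes held 13.1 wild-type and 9.38 knockout insertions per gene per kb in the 200 bp before the start. The 15 photoreceptor factors held 181 and 176 there, and all genes with a RefSeq start held 70.7 and 67.2. Farther than 200 bp from the start, single bins of the listed genes reached 9.38 in the wild-type and 7.5 in the knockout library. Since that start was picked by its insertions, the height of each profile is raised by the choice.

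**Figure D5:**
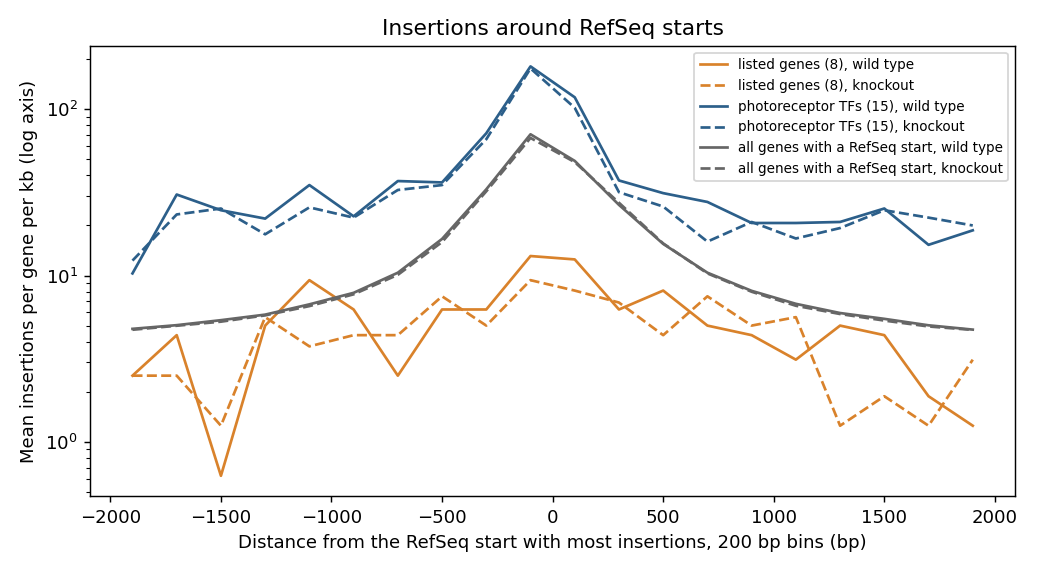
Mean insertions per gene per kb (log axis) in 200 bp bins around the RefSeq start with most insertions, solid for wild type and dashed for knockout. The listed genes reach 13.1 and 9.38 just before the start, the photoreceptor factors 181 and 176, and all genes with a RefSeq start 70.7 and 67.2.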

How the data were processed

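The deposited files list 1 aligned read of 75 bp per line. The score deposited by the authors is the mapping quality of the read, and the other deposited columns used are read coordinates, without normalization. Per the submitters' processing notes Trimmomatic 0.33, BWA and bedtools 2.23.0 were used with GRCm38 (mm10). The version of BWA and any duplicate filter are not stated in these sources. There were 9170838 wild-type and 9038110 knockout reads.

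The 5-prime ends were moved to the Tn5 cut (4 bp for plus-strand and -5 bp for minus-strand reads). Open regions were called on both libraries summed, from 200 bp windows placed every 50 bp. A window was kept at a Poisson threshold of 1e-05 against either mean, genome or 10000 bp around, whichever was larger, and windows within 150 bp were merged. This gave 36840 regions. A pseudocount of 0.5 was used in ratios. Starts followed the strand of RefSeq entries for 17492 genes, otherwise the end with more insertions. Counting and intervals were tested on simulated data. The rod marker list is not reported here. The members and gene lists were chosen with earlier results of these data known. All listed genes are named; of each comparison list the rule named the genes with most and fewest insertions at the start and with the largest window ratio. Meis1, Tcf4, Pax6 and Tbx4 over its window were named after their values were seen. Python 3.11.15, numpy 2.4.6 and scipy 1.17.1 were used.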

Additional observations from a re-analysis of the deposited data

How the results depend on the processing

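Alternatives changed the scaling, the treatment of repeated reads, the mapping quality minimum, the pseudocount, the window sizes and the region call. Of 232 alternative values 219 stayed inside the main counting interval or, for a count, within 1.5 times. That tally does not measure how stable the results are. Of the 232 values 155 are of single genes, many with wide intervals, and some settings cannot change some values. The Barhl2 start, for one, went from -0.87 to -2.75 with a window of 250 bp and was still inside its interval. The Prox1 window stayed below 0 with its interval in 7 of 7 alternatives, from -0.54 to -0.34. With a flank of 50 kb the Tfap2b window also had an interval below 0 (-0.32, -0.59 to -0.06). The median over the 10 windows was 0.14 with no flank, where it was -0.10 with 5 kb. With no flank the Ptf1a ratio was 1.40. Of all gene windows, those with an interval below 0 numbered 220 with the other scaling, 346 with the trimmed mean of M values and 983 with all reads kept, against 650. With a flank of 50 kb they numbered 968. Those above 0 numbered 1404, 966 and, with a flank of 50 kb, 960, against 520. Windows past 1.5-fold numbered 23 with a flank of 50 kb, against 49. Starts past 2-fold numbered 263 with a window of 1000 bp and 0 with a minimum of 100 insertions, against 168, and regions past 2-fold 1110 with all reads kept and 3136 with no minimum, against 681. The cause of these moves was not tested. The sums without Prox1 or without the region at Aatf, and at RefSeq starts, were chosen after seeing the data. Depth limits the starts: the intervals at all 10 starts include 0 at 500 bp, and that of Onecut2, with most insertions, runs from -1.78 to 0.51. At 1000 bp that of the Ptf1a start leaves out 0 (1.64, 0.06 to 3.83). No paired analysis was possible because each genotype had 1 library.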
